A study of Mus musculus with 17 samples.

Results

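Mitochondrially encoded genes are the genes carried by mitochondrial DNA, the small circular genome inside mitochondria. Their 16 entries, of 34140 genes measured, were taken by name, as the gene names beginning with lower-case mt-, and all lie on chromosome MT. They are 13 protein-coding genes, 2 ribosomal RNA (rRNA) genes and 1 transfer RNA (tRNA) gene. The annotation GENCODE M21 lists 37 genes on this chromosome, and the other 21, which are tRNA genes, were not analysed here. The study took skin of C57/BL6j mice after injury for RNA sequencing, with or without ionizing radiation (IR), and asked which molecules act in wound healing after IR. Irradiated skin was sampled at day 3 (3 libraries), day 6 (2) and day 9 (3), and control skin at day 0 (2), day 3 (2), day 6 (2) and day 9 (3). No irradiated library is labelled day 0, and the labels give neither the dose nor which libraries share an animal, so p-values measure the spread between these samples, which may be technical. The basal keratinocyte genes Krt5 and Krt14, which mark skin epidermis, were present throughout, Krt5 at 625 to 1619 FPKM in irradiated and 540.00 to 2020.4 in control libraries, and Krt14 at 3559 to 12080.1 and 600.5 to 12732 FPKM. Levels are in FPKM, the fragments of a gene relative to its length and to the library's total. The libraries held 25440773 to 30797409 assigned fragments each, and within this depth mt-Atp8 had 1 to 11 fragments per library while mt-Co1 had 475091 to 1772956.

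The protein-coding genes of mitochondrial DNA make core subunits of the respiratory chain: complex I, which takes electrons from NADH, complex III, complex IV, which passes them to oxygen, and complex V, the ATP synthase. Nuclear genes supply the remaining subunits and every protein that copies, transcribes and translates mitochondrial DNA. Both strands of the circle are transcribed as long precursors, and tRNAs lying between the other genes mark where the precursors are cut. Muscle and brown fat are rich in mitochondria, and in bulk tissue fewer cells of a type and less RNA per cell cannot be told apart.

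Mitochondrially encoded RNA took a larger share of the transcripts in both day-0 libraries than in any later library, irradiated or control. As a percentage of the summed FPKM of all genes, the 16 genes held 8.71, 9.28 and 8.69 in the irradiated libraries of day 3, 11.2 and 11.7 at day 6 and 8.33, 8.84 and 8.83 at day 9. In control libraries they held 31.8 and 21.7 at day 0, 9.99 and 12.6 at day 3, 10.9 and 10.2 at day 6 and 9.32, 10.1 and 11.1 at day 9. By summed FPKM, the irradiated libraries lay below the control libraries at days 3 and 9 and above them at day 6. Over days 3 to 9 the share averaged 9.45% ± 1.27 (SD, n = 8) in irradiated and 10.6% ± 1.07 (SD, n = 7) in control skin, against 26.8% ± 7.15 (SD, n = 2) at day 0. The day-0 libraries differed from each other more than any libraries of a later group did. Counted as fragments rather than per length, the share averaged 4.40% in irradiated and 4.86% in control skin of days 3 to 9, and 13.8% at day 0. On that measure the arms were apart at day 3 alone. They overlapped at day 6 (5.34% to 5.88% in irradiated, 4.66% to 5.64% in control) and at day 9 (3.75% to 4.03% and 3.94% to 4.94%). These shares are sums over the 16 genes and are given as a description without a test. Among the classes, protein-coding genes made up nearly all of the share in these libraries, which prime on poly(A) tails. The 2 rRNAs held 0.244% to 0.691% of summed FPKM over all libraries, and mt-Tp held 0.334% to 0.940%.

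**Figure D1:**
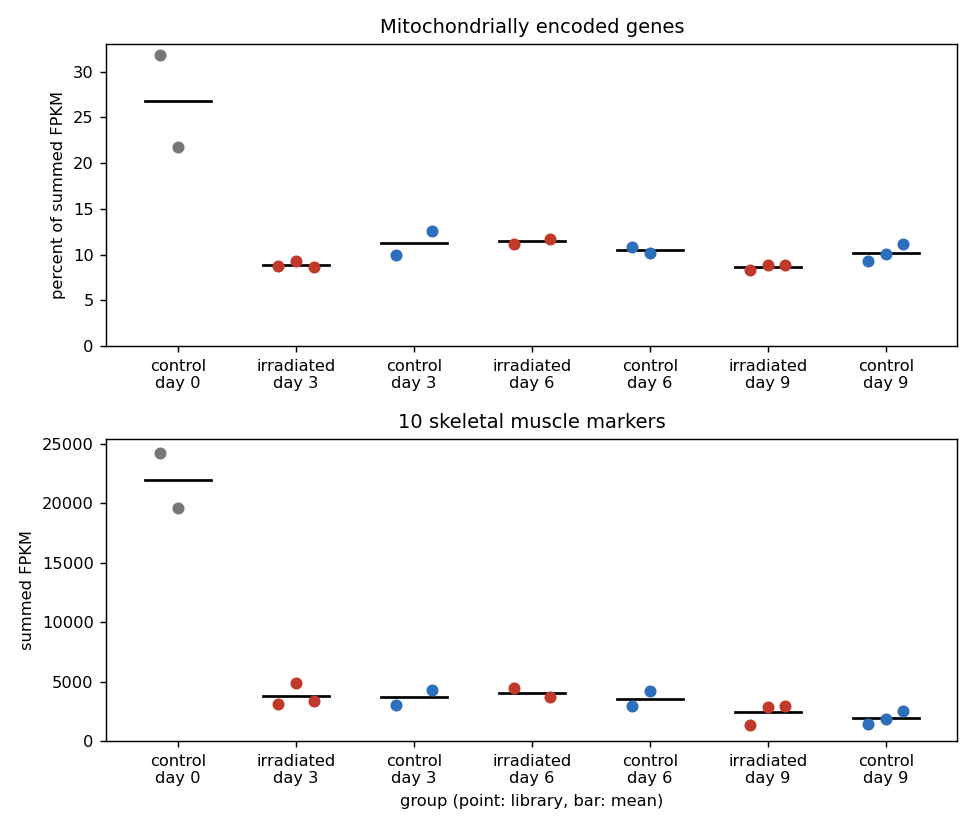
Share of summed FPKM (percent) held by the 16 mitochondrially encoded genes in each library, by day and arm (upper panel), and summed FPKM of 10 skeletal muscle markers (lower panel). Each point is a library. In the upper panel, the day-0 control libraries stand at 31.8 and 21.7, and all 15 later libraries between 8.33 and 12.6.

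The levels of the members ranged widely along the same circle of DNA. mt-Co1 was the gene with the highest FPKM of all 34140 genes in each of the 17 libraries, with a mean over libraries of 16112 FPKM. mt-Cytb (8091 FPKM), mt-Nd1 (8077), mt-Nd2 (3453), mt-Nd4 (2932) and mt-Nd5 (2572) followed. The rRNAs were lower, at 765 FPKM for mt-Rnr1 and 579 for mt-Rnr2. These libraries prime on poly(A) tails, so the amounts of rRNA, tRNA and mRNA in the tissue cannot be compared from them. The lowest protein-coding members lay next to each other between mt-Co1 and mt-Nd4: mt-Co2 at 192 FPKM, mt-Atp8 at 0.595, mt-Atp6 at 71.5, mt-Co3 at 136, mt-Nd3 at 12.9 and mt-Nd4l at 9.25.

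This stretch of mitochondrial DNA has a near-identical copy in the nuclear genome, on chromosome 1 (GRCm38), where GENCODE M21 annotates 7 pseudogenes on the minus strand. Of these 7, 5 were identical to their mitochondrial gene over all aligned bases, and the other 2 differed at 1 base each. The pseudogenes are Gm29216 (a part of mt-Co1, 483 aligned bases), Gm28661 (mt-Co2, 681), Gm10925 (mt-Atp6, 678), Gm28437 (mt-Co3, 783), Gm28438 (mt-Nd3, 345), Gm10222 (mt-Nd4l, 294) and Gm28439 (a part of mt-Nd4, 876). They lie between positions 24611535 and 24616197. The 5 members matched over their whole coding part had mean levels of 9.25 to 191.8 FPKM, against 1391 to 8091 FPKM for the 5 protein-coding members with no copy there. The 2 members matched in part, mt-Co1 and mt-Nd4, had 16112 and 2932 FPKM. mt-Atp8 has no annotated copy, but 161 of its 204 bases lie in the 233 bases between the matched parts of mt-Co2 and mt-Atp6, and the gap between their copies on chromosome 1 is also 233 bases long. How fragments that match more than 1 place were counted is not given in the sources used here, so levels of these members and of their copies cannot be told apart.

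The sequences of a pair of such members are shown because member and copy can hardly be told apart by their letters. They are from the GENCODE M21 transcripts (GRCm38), 5′ to 3′. The first 300 bases are given of mt-Nd3 (MT, 9459 to 9758, plus strand) and of its copy Gm28438 (chromosome 1, 24612820 to 24613119, minus strand). They differ at the third base, in capitals, and the substitution is T3C counted from the first base of mt-Nd3. mt-Nd4l (MT, 9877 to 10173, plus strand) is identical to Gm10222 (chromosome 1, 24612407 to 24612700, minus strand) over the 294 bases of the copy, so it is printed once.
mt-Nd3: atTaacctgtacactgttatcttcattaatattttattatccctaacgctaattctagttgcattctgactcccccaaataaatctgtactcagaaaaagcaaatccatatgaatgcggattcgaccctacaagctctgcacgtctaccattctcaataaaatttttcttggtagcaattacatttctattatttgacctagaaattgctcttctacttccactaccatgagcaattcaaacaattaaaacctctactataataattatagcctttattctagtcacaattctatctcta
Gm28438: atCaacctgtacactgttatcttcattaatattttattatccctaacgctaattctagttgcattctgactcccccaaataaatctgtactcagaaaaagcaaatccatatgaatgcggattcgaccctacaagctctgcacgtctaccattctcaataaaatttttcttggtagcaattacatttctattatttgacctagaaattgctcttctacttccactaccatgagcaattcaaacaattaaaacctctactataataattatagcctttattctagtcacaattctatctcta
mt-Nd4l: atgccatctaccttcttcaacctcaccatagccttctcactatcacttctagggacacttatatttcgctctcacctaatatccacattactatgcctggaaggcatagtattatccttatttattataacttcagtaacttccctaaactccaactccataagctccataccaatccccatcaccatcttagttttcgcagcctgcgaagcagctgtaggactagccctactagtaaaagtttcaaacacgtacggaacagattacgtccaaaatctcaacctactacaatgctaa

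Of all windows of 100 bases in each gene, 97.6% of those in mt-Nd3, 98.5% in mt-Nd4l, 99.5% in mt-Co2 and in mt-Atp6 and 99.9% in mt-Co3 were found without a mismatch in another annotated transcript. The share was 60.8% for mt-Nd4 and 30.8% for mt-Co1, 3.19% for mt-Nd2, and 0 for mt-Nd1, mt-Nd5, mt-Nd6, mt-Cytb, mt-Atp8 and both rRNAs. The fragments of a member and its copy were divided unevenly. The copy held 70.8% to 82.3% of the fragments of the pair for mt-Atp6, 75.7% to 86.4% for mt-Nd3, 40.6% to 68.5% for mt-Nd4l, 36.2% to 84.3% for mt-Co2 and 32.1% to 55.6% for mt-Co3. For mt-Co1 and mt-Nd4 it held at most 1.75% and 1.001%. With the copy added, the summed FPKM was 4.65% of that of mt-Nd1 for mt-Co2, 3.73% for mt-Atp6, 2.83% for mt-Co3, 0.797% for mt-Nd3 and 0.262% for mt-Nd4l. These sums hold only fragments assigned to the member or the copy. Any fragments left uncounted because they match both are missing from them, and the cause of the low levels was not tested.

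**Figure D2:**
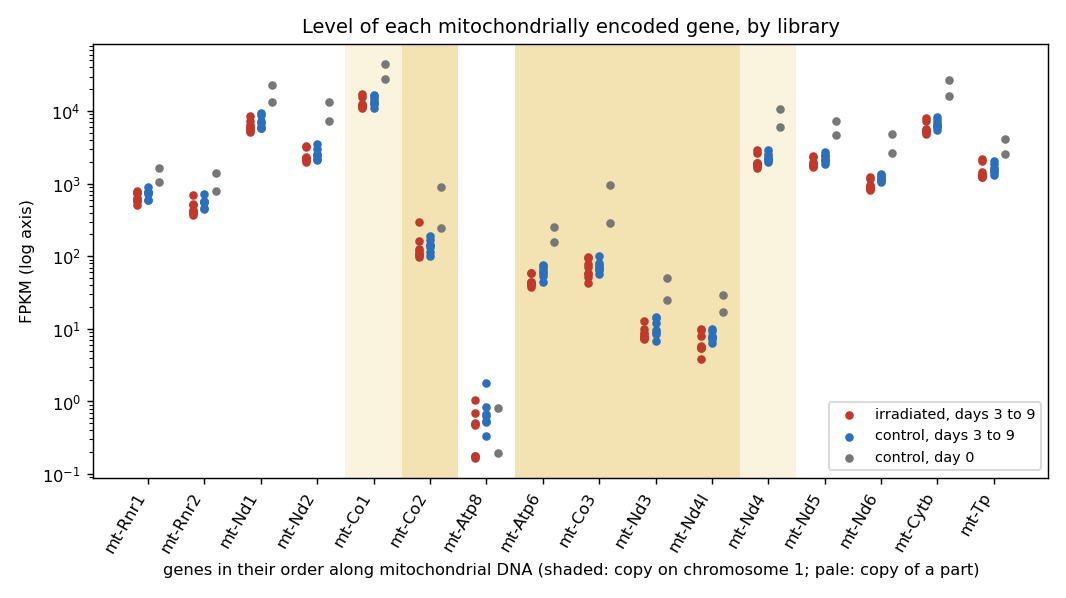
FPKM on a log axis of the 16 members in the order in which they lie on mitochondrial DNA, 1 point per library. Shading marks members with a chromosome 1 copy (pale where it covers a part of the gene). The shaded members from mt-Co2 to mt-Nd4l, and mt-Atp8 among them, lie at no more than 953 FPKM, while members without a copy reach 26731 FPKM.

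**Figure D3:**
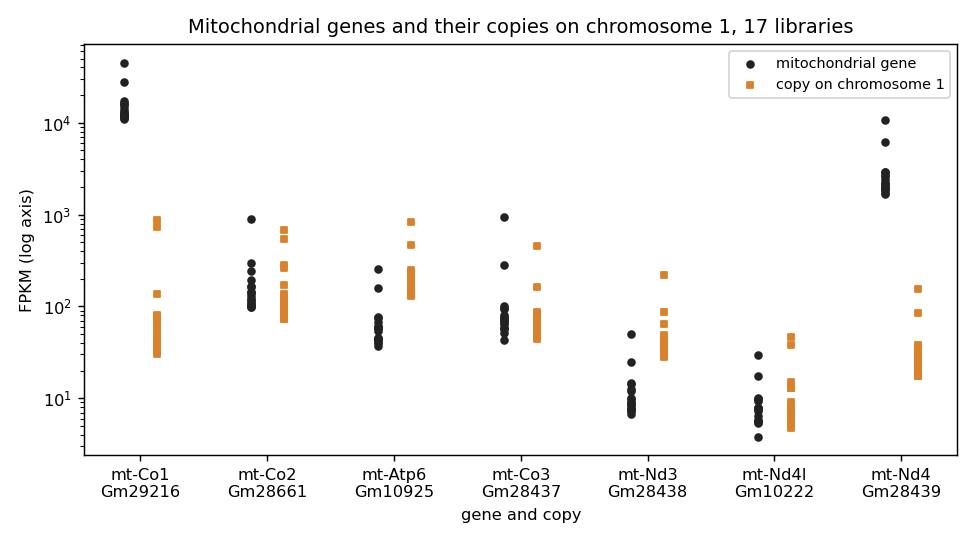
FPKM on a log axis of the 7 members with a chromosome 1 copy and of their copies, side by side, 1 point per library. The copies of mt-Atp6 and mt-Nd3 lie above their members and held 70.8% or more of the fragments of the pair in every library. Those of mt-Co1 and mt-Nd4 lie below and held at most 1.75%.

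Between irradiated and control skin, 1 of the 16 mitochondrially encoded genes passed the test when averaged over the days, and that call was not stable. Changes are given as log2 fold changes of FPKM + 1 from a limma fit to all 17 libraries, adjusted over 15271 genes, and an adjusted p under 0.05 passed. All 16 members were among the genes tested, mt-Atp8 only just, with 1 FPKM or more in 2 libraries. Averaged over days 3, 6 and 9 (8 irradiated against 7 control libraries), 1 of 16 members fell and 0 rose, where 2.57% of all tested genes fell and 4.36% rose. The median of the members was -0.17, that of all genes -0.01. The member that fell was mt-Atp6, which makes a membrane subunit of the ATP synthase, by 0.40 (SE 0.11, limma adjusted p 0.0427). This call ended in 17 of 25 alternatives: leaving out any 1 of 14 of the 15 libraries of days 3 to 9 gave adjusted p values of 0.0542 to 0.105. With the counts of its copy Gm10925 added, an alternative chosen after seeing the data, mt-Atp6 stood at -0.24 (limma adjusted p 0.225).

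By day, 0 members passed at day 3, day 6 or day 9 with limma, and limma-voom, a fit that weights each value by its depth, also called 0 on the recovered fragments. At an unadjusted p under 0.05 there were 6, 0 and 1 of 16, where 11.4%, 15.4% and 22.7% of all tested genes had such a p. At the adjusted threshold, 0.288% of all tested genes fell and 1.56% rose at day 3, 0.124% and 0.151% at day 6, and 3.05% and 2.33% at day 9. The median of the members was -0.44 at day 3, 0.14 at day 6 and -0.17 at day 9, beside -0.04, 0.02 and 0.02 over all genes. By value alone, 13 of 16 members were lower in every irradiated than in every control library at day 3, where 25.1% of all genes were. At day 6, with 2 libraries an arm, 4 of 16 were higher in both irradiated libraries (19.8% of all genes) and 0 were lower (16%). At day 9 the count was 7 of 16 lower (17.2%) and 0 higher (16.8%). The F test for a different irradiation effect on different days passed for 0 of 16 members (limma, 2 at an unadjusted p under 0.05, as had 15.3% of all genes; 0.0131% of all genes passed).

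**Figure D4:**
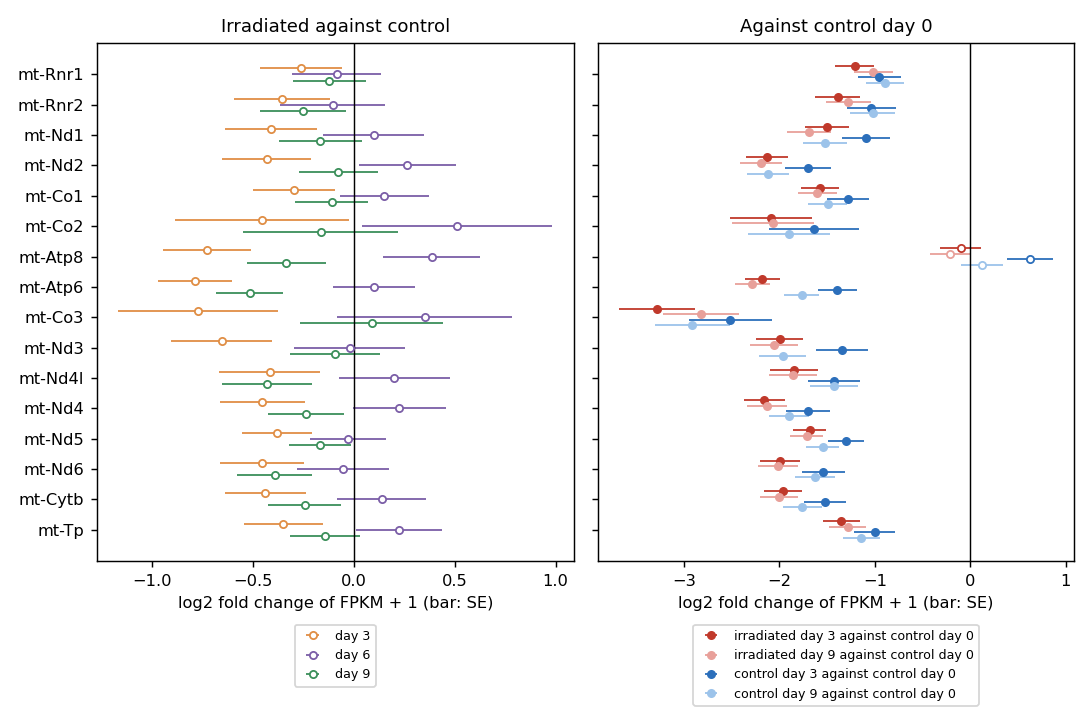
Log2 fold change of FPKM + 1 for each of the 16 members. The left panel sets irradiated against control skin at days 3, 6 and 9, and the right panel sets irradiated and control skin of days 3 and 9 against control day 0. Filled points have a limma adjusted p under 0.05 and open points do not. All points of the left panel are open, and in the right panel all but those of mt-Atp8 are filled and lie below 0.

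Complex I takes 7 of its core membrane subunits from mitochondrial DNA. mt-Nd1 (ENSMUSG00000064341, MT, 2751 to 3707, plus strand) encodes subunit ND1, next to the ubiquinone site. Irradiated skin held mt-Nd1 at 6404, 5887 and 6294 FPKM at day 3, 7344 and 8491 at day 6 and 5224, 5589 and 5536 at day 9. Control skin held mt-Nd1 at 23195 and 13315 FPKM at day 0, 7225 and 9364 at day 3, 8984 and 6057 at day 6 and 5775, 5784 and 6834 at day 9. For mt-Nd1, every irradiated library lay below every control library at days 3 and 9 and the arms overlapped at day 6. Both day-0 values of mt-Nd1 stood above those of all later libraries. mt-Nd2 (ENSMUSG00000064345, MT, 3914 to 4951, plus strand) encodes ND2, a proton-pumping subunit. The mt-Nd2 level in irradiated skin was 2282, 2336 and 2107 FPKM at day 3, 3178 and 3328 at day 6 and 2012, 2197 and 2258 at day 9. The mt-Nd2 level in control skin was 13426 and 7208 FPKM at day 0, 2611 and 3495 at day 3, 3041 and 2407 at day 6 and 2154, 2209 and 2457 at day 9. Set side by side for mt-Nd2, every irradiated library lay below every control library at day 3, every irradiated library lay above every control library at day 6 and the arms overlapped at day 9. Day 0 gave mt-Nd2 its highest values of the series in both libraries.

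ND4 and ND5 are further proton-pumping subunits, and mt-Nd4 (ENSMUSG00000064363, MT, 10167 to 11544, plus strand) overlaps mt-Nd4l by 7 bases. For mt-Nd4, irradiated libraries had 1839, 1886 and 1733 FPKM at day 3, 2672 and 2916 at day 6 and 1669, 1953 and 1929 at day 9. For mt-Nd4, control libraries had 10731 and 6129.9 FPKM at day 0, 2128 and 2916 at day 3, 2563 and 2226 at day 6 and 1982, 2168 and 2399 at day 9. With mt-Nd4, every irradiated library lay below every control library at days 3 and 9 and every irradiated library lay above every control library at day 6. No later library came up to either day-0 value of mt-Nd4. mt-Nd5 (ENSMUSG00000064367, MT, 11742 to 13565, plus strand) ends 14 bases inside mt-Nd6 on the other strand. Irradiated skin held mt-Nd5 at 1739.8, 1969.6 and 1839 FPKM at day 3, 2356 and 2443 at day 6 and 1678, 1856 and 1879 at day 9. Control skin held mt-Nd5 at 7388 and 4748 FPKM at day 0, 2127 and 2711 at day 3, 2484 and 2409 at day 6 and 1861, 2033 and 2196 at day 9. For mt-Nd5, every irradiated library lay below every control library at day 3 and the arms overlapped at days 6 and 9. Both day-0 values of mt-Nd5 stood above those of all later libraries. mt-Nd6 (ENSMUSG00000064368, MT, 13552 to 14070, minus strand) is the protein-coding gene of the opposite strand, and Smart-Seq2 libraries do not mark strand, so its fragments cannot be told from those of the antisense transcript. The mt-Nd6 level in irradiated skin was 856, 947 and 888 FPKM at day 3, 1146 and 1238 at day 6 and 808, 900.1 and 942 at day 9. The mt-Nd6 level in control skin was 4869.9 and 2621 FPKM at day 0, 1119.8 and 1347 at day 3, 1336 and 1142 at day 6 and 1043, 1196 and 1239 at day 9. Set side by side for mt-Nd6, every irradiated library lay below every control library at days 3 and 9 and the arms overlapped at day 6. Day 0 gave mt-Nd6 its highest values of the series in both libraries.

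mt-Nd3 (ENSMUSG00000064360, MT, 9459 to 9806, plus strand) and mt-Nd4l (ENSMUSG00000065947, MT, 9877 to 10173, plus strand) encode small membrane subunits, and both were far below the other complex I members, as were their copies. For mt-Nd3, irradiated libraries had 7.74, 8.83 and 7.66 FPKM at day 3, 12.7 and 10.1 at day 6 and 8.49, 7.44 and 7.18 at day 9. For mt-Nd3, control libraries had 49.6 and 24.9 FPKM at day 0, 11.9 and 14.7 at day 3, 14.3 and 9.17 at day 6 and 6.82, 8.46 and 9.75 at day 9. With mt-Nd3, every irradiated library lay below every control library at day 3 and the arms overlapped at days 6 and 9. No later library came up to either day-0 value of mt-Nd3. mt-Nd4l had 35 to 225 fragments per library. Irradiated skin held mt-Nd4l at 3.83, 5.63 and 7.93 FPKM at day 3, 10.1 and 9.71 at day 6 and 5.41, 5.77 and 5.46 at day 9. Control skin held mt-Nd4l at 29.8 and 17.3 FPKM at day 0, 6.42 and 9.43 at day 3, 9.87 and 7.28 at day 6 and 7.77, 7.86 and 7.78 at day 9. For mt-Nd4l, every irradiated library lay below every control library at day 9 and the arms overlapped at days 3 and 6. Both day-0 values of mt-Nd4l stood above those of all later libraries. The lowest and highest log2 fold changes of the 7 complex I members, irradiated against control, were -0.65 for mt-Nd3 and -0.38 for mt-Nd5 at day 3 (limma adjusted p 0.313 to 0.601). They were -0.05 for mt-Nd6 and 0.27 for mt-Nd2 at day 6 (limma adjusted p 0.622 to 0.985), and -0.43 for mt-Nd4l and -0.08 for mt-Nd2 at day 9 (limma adjusted p 0.235 to 0.852). None of the 7 passed at any of the 3 days.

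Complexes III and IV carry electrons onward to oxygen. mt-Cytb (ENSMUSG00000064370, MT, 14145 to 15288, plus strand) encodes cytochrome b, the only complex III subunit made in mitochondria. The mt-Cytb level in irradiated skin was 5174, 5614 and 5303 FPKM at day 3, 7349 and 8127 at day 6 and 4818, 5387 and 5436 at day 9. The mt-Cytb level in control skin was 26731 and 16271 FPKM at day 0, 6282 and 8407 at day 3, 7546 and 6534 at day 6 and 5582, 6058 and 6921 at day 9. Set side by side for mt-Cytb, every irradiated library lay below every control library at days 3 and 9 and the arms overlapped at day 6. Day 0 gave mt-Cytb its highest values of the series in both libraries. mt-Co1 (ENSMUSG00000064351, MT, 5328 to 6872, plus strand) encodes the catalytic subunit of cytochrome c oxidase. For mt-Co1, irradiated libraries had 11768, 12362 and 11668 FPKM at day 3, 15510.05 and 17372 at day 6 and 11221, 11843 and 11979.6 at day 9. For mt-Co1, control libraries had 45107 and 27932 FPKM at day 0, 12997 and 16476 at day 3, 16123 and 13548 at day 6 and 11064, 12388 and 14552 at day 9. With mt-Co1, every irradiated library lay below every control library at day 3 and the arms overlapped at days 6 and 9. No later library came up to either day-0 value of mt-Co1. Between irradiated and control skin, mt-Cytb stood at -0.44 at day 3, 0.14 at day 6 and -0.24 at day 9 on the log2 scale (limma adjusted p 0.438, 0.803 and 0.45).

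mt-Co2 (ENSMUSG00000064354, MT, 7013 to 7696, plus strand) encodes the subunit that receives electrons from cytochrome c. Irradiated skin held mt-Co2 at 105, 126 and 98.1 FPKM at day 3, 162 and 299.9 at day 6 and 106, 118 and 109 at day 9. Control skin held mt-Co2 at 895 and 244 FPKM at day 0, 116 and 193 at day 3, 165 and 144 at day 6 and 99.5, 143 and 136 at day 9. For mt-Co2, the arms overlapped at days 3, 6 and 9. The lower day-0 value of mt-Co2 was not above all later libraries, since irradiated day 6 replicate 3, at 299.9 FPKM, exceeded it. mt-Co3 (ENSMUSG00000064358, MT, 8607 to 9390, plus strand) encodes the third mitochondrially made subunit. The mt-Co3 level in irradiated skin was 43.1, 58.9 and 57.5 FPKM at day 3, 93.9 and 70.2 at day 6 and 51.6, 96.7 and 77.4 at day 9. The mt-Co3 level in control skin was 953 and 286 FPKM at day 0, 100.4 and 81.7 at day 3, 71.0 and 56.7 at day 6 and 74.8, 64.9 and 66.0 at day 9. Set side by side for mt-Co3, every irradiated library lay below every control library at day 3 and the arms overlapped at days 6 and 9. Day 0 gave mt-Co3 its highest values of the series in both libraries. The lowest and highest log2 fold changes of the 3 complex IV members, irradiated against control, were -0.77 for mt-Co3 and -0.29 for mt-Co1 at day 3 (limma adjusted p 0.506 to 0.782). They were 0.15 for mt-Co1 and 0.51 for mt-Co2 at day 6 (limma adjusted p 0.629 to 0.781), and -0.16 for mt-Co2 and 0.09 for mt-Co3 at day 9 (limma adjusted p 0.763 to 0.907). The standard errors of mt-Co2 and mt-Co3 at day 3 (0.43 and 0.40) were the largest of the 16 members.

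Complex V takes 2 subunits from mitochondrial DNA, whose genes overlap by 43 bases. mt-Atp6 (ENSMUSG00000064357, MT, 7927 to 8607, plus strand) encodes subunit a, part of the proton channel. For mt-Atp6, irradiated libraries had 43.8, 41.1 and 45.0 FPKM at day 3, 58.7 and 59.4 at day 6 and 37.2, 43.1 and 40.4 at day 9. For mt-Atp6, control libraries had 253 and 157 FPKM at day 0, 74.0 and 76.6 at day 3, 67.5 and 45.0 at day 6 and 54.2, 58.2 and 61.4 at day 9. With mt-Atp6, every irradiated library lay below every control library at days 3 and 9 and the arms overlapped at day 6. No later library came up to either day-0 value of mt-Atp6. Between irradiated and control skin its log2 fold change was -0.79 at day 3 (SE 0.18, limma adjusted p 0.0553), 0.10 at day 6 (0.855) and -0.52 at day 9 (0.0879). mt-Atp8 (ENSMUSG00000064356, MT, 7766 to 7969, plus strand) encodes subunit 8, and its level was close to 0 in every library. Irradiated skin held mt-Atp8 at 0.478, 0.502 and 0.167 FPKM at day 3, 0.692 and 1.06 at day 6 and 0.179, 0.179 and 0.497 at day 9. Control skin held mt-Atp8 at 0.193 and 0.822 FPKM at day 0, 0.834 and 1.82 at day 3, 0.526 and 0.336 at day 6 and 0.637, 0.664 and 0.531 at day 9. For mt-Atp8, every irradiated library lay below every control library at days 3 and 9 and every irradiated library lay above every control library at day 6. Its sequence is printed because it is the member at the edge of detection, with 0 of its 100-base windows found in another annotated transcript.
mt-Atp8: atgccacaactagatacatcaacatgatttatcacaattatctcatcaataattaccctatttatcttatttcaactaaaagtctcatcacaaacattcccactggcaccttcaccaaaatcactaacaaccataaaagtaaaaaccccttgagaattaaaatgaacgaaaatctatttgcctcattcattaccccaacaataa

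The rRNAs form the mitochondrial ribosome with nuclear-encoded proteins. mt-Rnr1 (ENSMUSG00000064337, MT, 70 to 1024, plus strand) is the rRNA of the small subunit. The mt-Rnr1 level in irradiated skin was 572, 622 and 512 FPKM at day 3, 736 and 784 at day 6 and 743, 645 and 572 at day 9. The mt-Rnr1 level in control skin was 1639.99 and 1054 FPKM at day 0, 604 and 763 at day 3, 896 and 725 at day 6 and 595, 762 and 781 at day 9. Set side by side for mt-Rnr1, the arms overlapped at days 3, 6 and 9. Day 0 gave mt-Rnr1 its highest values of the series in both libraries. mt-Rnr2 (ENSMUSG00000064339, MT, 1094 to 2675, plus strand) is the rRNA of the large subunit. For mt-Rnr2, irradiated libraries had 402, 418 and 392.4 FPKM at day 3, 691 and 509 at day 6 and 520.4, 437 and 367 at day 9. For mt-Rnr2, control libraries had 1417 and 794 FPKM at day 0, 469 and 570.3 at day 3, 726 and 561 at day 6 and 450.5, 564 and 557 at day 9. With mt-Rnr2, every irradiated library lay below every control library at day 3 and the arms overlapped at days 6 and 9. No later library came up to either day-0 value of mt-Rnr2. The lowest and highest log2 fold changes of the 2 rRNAs, irradiated against control, were -0.35 for mt-Rnr2 and -0.26 for mt-Rnr1 at day 3 (limma adjusted p 0.648 to 0.717). They were -0.10 for mt-Rnr2 and -0.09 for mt-Rnr1 at day 6 (limma adjusted p 0.88 to 0.886), and -0.25 for mt-Rnr2 and -0.12 for mt-Rnr1 at day 9 (limma adjusted p 0.511 to 0.73).

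mt-Tp (ENSMUSG00000064372, MT, 15356 to 15422, minus strand), the proline tRNA, is the last gene before the non-coding control region. It is 67 bases long and had 2367 to 7088 fragments per library. Its sequence, on its own strand, is printed because it is the shortest member and the only tRNA measured here.
mt-Tp: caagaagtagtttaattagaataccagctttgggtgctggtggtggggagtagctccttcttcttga
Like mt-Nd6 it lies on the minus strand, and without strand its fragments cannot be told from those of the opposite transcript. Irradiated skin held mt-Tp at 1247, 1376 and 1245 FPKM at day 3, 2086 and 2178 at day 6 and 1289, 1316 and 1441 at day 9. Control skin held mt-Tp at 4158 and 2599 FPKM at day 0, 1443 and 1864 at day 3, 2059 and 1613 at day 6 and 1307, 1513 and 1661 at day 9. For mt-Tp, every irradiated library lay below every control library at day 3, every irradiated library lay above every control library at day 6 and the arms overlapped at day 9. Both day-0 values of mt-Tp stood above those of all later libraries. The log2 fold change of mt-Tp between irradiated and control skin was -0.35 at day 3, 0.23 at day 6 and -0.14 at day 9 (limma adjusted p 0.56, 0.638 and 0.669).

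Some cell type markers differed between irradiated and control skin. Averaged over days, 0 of 10 skeletal muscle, 0 of 5 keratinocyte, 0 of 6 fibroblast, 0 of 5 neutrophil and 0 of 2 tested brown adipocyte markers passed (limma, with 3, 1, 0, 1 and 0 at an unadjusted p under 0.05, which 22.7% of all genes had, and 0 by limma-voom in the lists it could test), whereas 5 of 5 red blood cell markers fell, 2 of 5 white adipocyte markers rose and 1 of 5 macrophage markers rose. Of all genes 2.57% fell and 4.36% rose. The summed red blood cell markers stood at 0.758 to 80.1 FPKM in irradiated and 76.6 to 209.7 in control libraries of days 3 to 9, with Hba-a2 at 0 in some. White adipocyte markers summed to 316 to 1486 and 103 to 439 FPKM. The macrophage marker that rose was Cd68 (0.91), in a list that summed to 825 to 2193 and 776 to 1861 FPKM. The part of these cells in the values of the mitochondrially encoded genes was not tested.

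Against day 0, nearly all mitochondrially encoded genes were lower at every later day, in both arms. In irradiated skin 15 of 16 members fell at day 3, 14 at day 6 and 15 at day 9, where 16.2%, 13% and 16.6% of all tested genes fell. None of the 16 rose, where 30.1%, 22.1% and 29.6% of all genes did. In control skin 15 of 16 fell at each of days 3, 6 and 9, where 12.4%, 14.2% and 18% of all genes fell, and again none rose, where 25.8%, 21.1% and 30.4% of all genes did. The median log2 fold change of the members was -1.90, -1.23 and -1.93 in irradiated skin at days 3, 6 and 9, and -1.37, -1.43 and -1.59 in control skin. Over all genes the median was 0.14, 0.12 and 0.15 in irradiated and 0.16, 0.11 and 0.15 in control skin. All these comparisons share the 2 day-0 libraries. For 14 of 16 members both day-0 libraries were above all 15 other libraries.

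The member that did not pass in any of them was mt-Atp8, and at day 6 in irradiated skin mt-Co2 did not pass either (-1.08, limma adjusted p 0.0931). The change was greatest for mt-Co3, which encodes a complex IV subunit: -3.28 (SE 0.40, limma adjusted p 6.91e-05) in irradiated skin at day 3 and -2.51 (SE 0.43, limma adjusted p 0.000869) in control skin. The mean of mt-Co3 was 53.2 ± 8.74 FPKM (SD, n = 3) in irradiated skin at day 3 and 91.1 ± 13.2 (n = 2) in control skin of that day, against 619 ± 472 (n = 2) at day 0. Of the members with no chromosome 1 copy, mt-Nd2 changed most, by -2.13, -1.60 and -2.19 in irradiated skin at days 3, 6 and 9 and by -1.70, -1.86 and -2.12 in control skin. Of the other 15 members, the rRNAs and mt-Tp had the smallest changes in all 6 of these comparisons, and mt-Rnr1 stood at -1.21, -0.79 and -1.02 in irradiated skin and at -0.95, -0.71 and -0.89 in control skin. mt-Co1, the most abundant, stood at -1.57, -1.11 and -1.60 in irradiated skin and at -1.28, -1.26 and -1.50 in control skin. Standard errors of the 15 members other than mt-Atp8 ran from 0.17 to 0.47.

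The counts depended on the libraries that estimate the spread. With only the 4 libraries of the groups compared, control day 3 against day 0 kept 1 call and control day 6 and irradiated day 6 against day 0 kept 0. Without control day 0 replicate 1, the library with the highest share, 10 to 15 members still fell in each of the comparisons with day 0, and without replicate 2 it was 15 in each. Without that replicate mt-Atp8 was called higher in control day 3 than at day 0 (0.93, limma adjusted p 0.0175), as it was without control day 3 replicate 1 (0.94, limma adjusted p 0.0261). The size of the change followed the day-0 library kept. mt-Co3 at day 3 stood at -2.42 in irradiated and -1.65 in control skin without replicate 1 (limma adjusted p 0.000472 and 0.00436), and at -4.15 and -3.38 without replicate 2. For mt-Co2 in control skin, the calls at days 3 and 6 ended without replicate 1 (-0.70 and -0.66, limma adjusted p 0.175 and 0.208) and the call at day 9 was kept (-0.96, 0.0459). mt-Rnr2 in control skin at day 6 stood at -0.32 without replicate 1 (limma adjusted p 0.389) and at -1.15 without replicate 2 (0.00524). Between day 9 and day 3, 0 members passed in either arm. Irradiated day 9 against irradiated day 3 had 0 of 16 members passing (0 at an unadjusted p under 0.05, against 16.2% of all genes; 0.583% of all genes lower and 0.38% higher, limma), and control day 9 against control day 3 had 0 as well (2 at an unadjusted p under 0.05, against 33.7% of all genes; 10.2% lower and 8.02% higher). limma-voom also called 0 in both.

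Markers of skeletal muscle, a tissue rich in mitochondria, moved with the day-0 difference. All 10 were measured, none was at 0 in a library, and their summed level was 1380.5 to 4878 FPKM in irradiated and 1450.3 to 4332 FPKM in control libraries of days 3 to 9, against 19596 to 24229 FPKM at day 0. Against day 0, 9, 10 and 10 of the 10 fell in irradiated skin at days 3, 6 and 9 (medians -2.34, -2.43 and -3.25), and 9, 10 and 10 in control skin (medians -2.58, -2.70 and -3.57). Of all genes, 16.2%, 13% and 16.6% fell and 30.1%, 22.1% and 29.6% rose in irradiated skin at these days. In control skin 12.4%, 14.2% and 18% fell and 25.8%, 21.1% and 30.4% rose. Acta1, the skeletal muscle actin, had 1308, 1986 and 1589 FPKM at day 3, 2226 and 1254 at day 6 and 535, 1265 and 1248 at day 9 in irradiated skin. In control skin Acta1 had 10054 and 8582 FPKM at day 0, 1418 and 2040.5 at day 3, 1137 and 1545 at day 6 and 454, 757 and 908 at day 9. Both day-0 libraries were above all later libraries in Acta1, with no overlap. Ckm, the muscle creatine kinase, lay between 37.3 and 179 FPKM in the later libraries, against 645 and 615 FPKM at day 0. Ucp1, the defining gene of brown fat, reached at most 0.151 FPKM in any library and was at 0 in some. The 3 brown adipocyte markers, Ucp1 among them, summed to 42.0 to 129.6 FPKM in irradiated and 13.8 to 268 FPKM in later control skin. At day 0 they summed to 60.8 to 86.1 FPKM. Nearly all of each sum came from the other markers of this list, Cidea and Elovl3, and not from Ucp1. Some other cell type markers differed from day 0 too, and their counts are to be read against the shares of all genes given above. Keratinocyte markers summed to 4655 to 15571 FPKM in irradiated and 6029 to 16125 FPKM in later control skin, against 2484 to 4252 FPKM at day 0. Members of this sum differed. Krt14 had 1099 and 600 FPKM at day 0 and 3141 FPKM or more in every later library. Krt5 had 939 and 540 FPKM at day 0 and 574 to 902 FPKM in control skin at day 9. In irradiated day 6 replicate 1, Krt14 (3559 FPKM) and Krt5 (625 FPKM) made up most of the sum of 4655 FPKM. The rest of the list, Krt1, Krt10 and Krt15, together held less there than in either day-0 library. A higher sum therefore does not mean that every keratinocyte marker rose. Neutrophil markers summed to 1794 to 9773 FPKM in irradiated and 301 to 19814 FPKM in later control skin, against 365 to 517 FPKM at day 0, and 2, 3 and 2 of 5 rose in irradiated skin at days 3, 6 and 9 and 2, 2 and 0 in control skin. For macrophage markers the sums were 825 to 2193 FPKM in irradiated and 776 to 1861 FPKM in later control skin, against 183 to 868 FPKM at day 0, and 3, 3 and 4 of 5 rose in irradiated skin at days 3, 6 and 9 and 1, 0 and 1 in control skin. White adipocyte markers summed to 316 to 1486 FPKM in irradiated and 103 to 439 FPKM in later control skin, against 569.9 to 768 FPKM at day 0, and 0, 0 and 0 of 5 fell in irradiated skin at days 3, 6 and 9 and 0, 0 and 4 in control skin. Immune cell markers were among those that rose, though the macrophage counts in control skin were below the share of all genes that rose. Fat cell markers fell in control skin at day 9. Red blood cell markers summed to 0.758 to 80.1 FPKM in irradiated and 76.6 to 209.7 FPKM in later control skin, against 186 to 253 FPKM at day 0, and 5, 5 and 4 of 5 fell in irradiated skin at days 3, 6 and 9 and 0, 0 and 0 in control skin. Of the fibroblast markers, which summed to 1521 to 6263 FPKM in irradiated and 1274 to 8823 FPKM in later control skin, against 799 to 2669.98 FPKM at day 0, 1, 0 and 4 of 6 rose in irradiated skin at days 3, 6 and 9 and 0, 1 and 4 in control skin. The part of these cells in the fall of the mitochondrially encoded genes was not tested.

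The mix of mitochondrially encoded RNAs also differed at day 0, a comparison that does not depend on the total of a library. As a share of the summed FPKM of the 13 protein-coding members, mt-Co1 held 38.8% to 40.6% in irradiated libraries and 36.5% to 39.5% in control libraries of days 3 to 9, against 33.8% to 35.4% at day 0. mt-Nd1 held 18.3% to 21.2% in irradiated and 17.5% to 21.2% in later control libraries, against 16.9% to 17.4% at day 0. Both were a smaller part of the mix at day 0 than in every later library. The reverse held for mt-Nd2, with 7.01% to 7.97% in irradiated and 6.66% to 7.75% in later control libraries, against 9.13% to 10.0% at day 0. mt-Nd4 had 5.77% to 6.70% in irradiated and 6.04% to 6.75% in later control libraries, against 7.76% to 8.03% at day 0. mt-Cytb had 17.1% to 18.4% in irradiated and 17.8% to 18.9% in later control libraries, against 20.0% to 20.6% at day 0. mt-Co3 also held more at day 0 than in every later library, and the day-0 range of the other 7 of the 13 overlapped that of later libraries. Among these were mt-Nd5, with 5.51% to 6.30% in irradiated and 5.86% to 6.97% in later control libraries, against 5.53% to 6.01% at day 0, and mt-Nd6, with 2.79% to 3.12% in irradiated and 2.99% to 3.73% in later control libraries, against 3.32% to 3.64% at day 0. Pooled over days 3 to 9, irradiated and control libraries overlapped for mt-Co1, mt-Nd1, mt-Nd2, mt-Nd4 and mt-Cytb. Within a day some did not. mt-Co1 held more in irradiated libraries at day 3 (38.8% to 39.6% against 36.5% to 37.3%) and at day 9 (39.48% to 40.6% against 37.2% to 39.46%). mt-Cytb held less at both of these days. mt-Nd4 held less at day 3 and more at day 6, and mt-Nd2 held more at days 6 and 9. mt-Nd1 overlapped at each day. These differences were not tested.

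Neighbouring genes on the same strand did not keep a fixed ratio. Per 100 FPKM of mt-Nd1, mt-Nd2 had 33.5 to 43.3 FPKM in irradiated and 33.8 to 39.7 in control libraries of days 3 to 9, against 57.9 and 54.1 at day 0. For mt-Co3 the level per 100 FPKM of mt-Atp6 was 98.5 to 224 in irradiated and 105 to 138 in later control libraries, against 376 and 182 at day 0. Both of these members have a chromosome 1 copy. The 2 rRNAs together had 2.91 to 4.57 FPKM per 100 FPKM of protein-coding members in irradiated and 2.96 to 4.13 in later control libraries, against 2.29 and 2.34 at day 0, so both day-0 libraries were below all others. The ratio of mt-Nd6, on the minus strand, overlapped when days 3 to 9 were pooled. It had 15.2 to 17.3 FPKM per 100 FPKM of its neighbour mt-Cytb in irradiated, 16.02 to 19.7 in later control and 18.2 and 16.1 in day-0 libraries. Within a day the arms overlapped at day 3. Irradiated libraries were lower at day 6 (15.6 and 15.2 against 17.7 and 17.5) and at day 9 (16.8, 16.7 and 17.3 against 18.7, 19.7 and 17.9). These ratios are descriptions without a test.

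**Figure D5:**
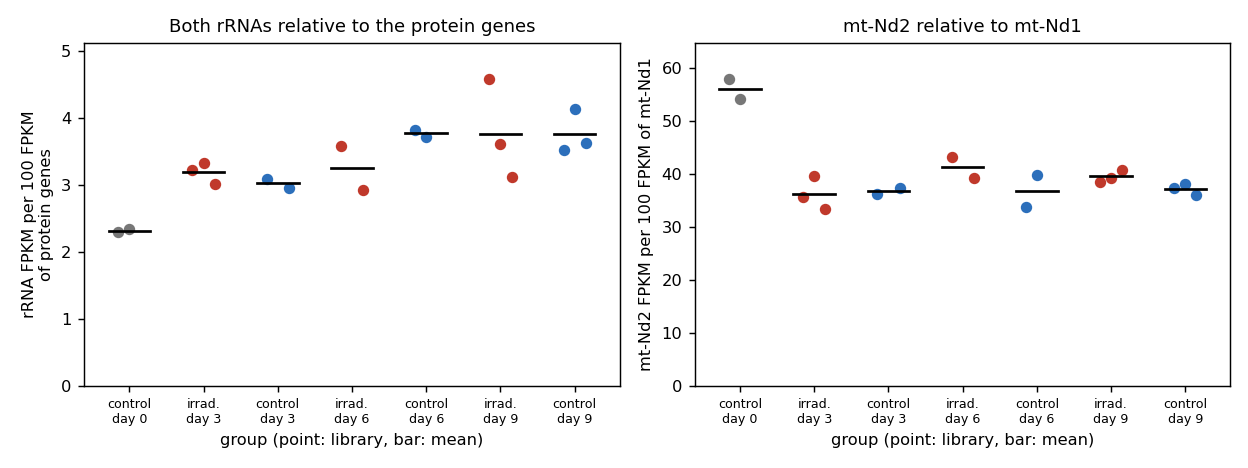
FPKM of both rRNAs relative to that of the 13 protein-coding members (left) and of mt-Nd2 relative to that of mt-Nd1 (right), 1 point per library, by arm and day. The day-0 libraries lie below every later library on the left and above every later library on the right.

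The nuclear genes for the other subunits of the same complexes mostly fell against day 0 as well, with medians closer to 0 than those of the mitochondrially encoded genes. Of all genes, 16.2%, 13% and 16.6% fell and 30.1%, 22.1% and 29.6% rose at days 3, 6 and 9 in irradiated skin, and 12.4%, 14.2% and 18% fell and 25.8%, 21.1% and 30.4% rose in control skin. Given as the number that fell at these days, the nuclear complex I genes counted 33, 28 and 34 of 35 in irradiated skin and 32, 30 and 35 in control skin, with medians of -0.75, -0.56 and -0.85 in irradiated and -0.67, -0.69 and -0.81 in control skin. None of them rose. Ndufs7, an iron-sulfur subunit, changed by -1.37 in irradiated skin at day 9 (limma adjusted p 3.77e-05) and by -1.40 in control skin (2.89e-05). For complex II, 3, 3 and 4 of 4 in irradiated skin and 3, 3 and 4 in control skin fell. This complex is built from nuclear genes alone. Its flavoprotein gene Sdha stood at -0.83 in irradiated and -0.999 in control skin at day 9. In complexes III and V most of the genes fell as well. The complex III list counted 8, 8 and 9 of 9 in irradiated skin and 8, 7 and 9 in control skin, with the Rieske protein gene Uqcrfs1 at -1.13 and -1.18 at day 9. The complex V list counted 15, 12 and 15 of 15 in irradiated skin and 11, 13 and 15 in control skin, with Atp5g1, which encodes the c-ring subunit, at -1.12 and -1.26. In complex IV, 7, 5 and 8 of 11 in irradiated skin and 5, 5 and 8 in control skin fell, and 2, 2 and 2 in irradiated and 2, 2 and 1 in control skin rose. The genes that rose, chosen after their values were seen, were Cox6a1 and Cox8a, both forms used outside striated muscle, with Cox6a1 at 0.52, 0.62 and 0.47 in irradiated and 0.54, 0.39 and 0.42 in control skin. Cox8a stood at 0.30, 0.57 and 0.26 in irradiated and 0.39, 0.32 and 0.23 in control skin, where it did not pass at day 9 (limma adjusted p 0.0674).

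The muscle forms of complex IV subunits, which striated muscle uses in place of other forms, all fell against day 0: 3 of 3 in each arm at each day, with medians of -3.73 in irradiated and -3.60 in control skin at day 9. Cox7a1 stood at -4.17 in irradiated and -3.60 in control skin, Cox8b at -3.73 and -3.63, and Cox6a2 at -3.23 and -3.52. Their summed level was 46.0 to 138 FPKM in irradiated and 48.1 to 136 FPKM in control libraries of days 3 to 9, against 589 to 936 FPKM at day 0. Between irradiated and control skin, 0 of the 77 genes of these 6 lists passed, averaged over days or at any day (limma and limma-voom). At an unadjusted p under 0.05 there were 2 averaged over days, 1 at day 3, 9 at day 6 and 5 at day 9, where 22.7%, 11.4%, 15.4% and 22.7% of all genes had such a p.

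Of the genes whose products transcribe mitochondrial DNA, some fell against day 0 and the polymerase gene did not pass. Polrmt, the mitochondrial RNA polymerase, stood at 0.05, 0.05 and -0.04 in irradiated skin at days 3, 6 and 9 (limma adjusted p 0.781, 0.78 and 0.809), and 0.06, -0.12 and -0.12 in control skin (0.743, 0.502 and 0.448). Polrmt passed in none of these. Tfam, which packs mitochondrial DNA and starts transcription with the polymerase, fell against day 0 at every day: -0.35, -0.37 and -0.44 in irradiated skin at days 3, 6 and 9 (limma adjusted p 0.00304, 0.0056 and 0.000631), and -0.23, -0.39 and -0.37 in control skin (0.0492, 0.0037 and 0.00176). Tfb2m, the factor that opens the promoter, also fell throughout, with -0.57, -0.42 and -0.55 in irradiated skin at days 3, 6 and 9 (limma adjusted p 0.000882, 0.0134 and 0.00108), and -0.35, -0.36 and -0.64 in control skin (0.0291, 0.0262 and 0.00036). Of the 8 genes of the transcription list, 4, 3 and 4 fell at days 3, 6 and 9 in irradiated and 4, 4 and 3 in control skin, and 0 rose. Of all genes, 16.2%, 13% and 16.6% fell in irradiated and 12.4%, 14.2% and 18% in control skin at these days. Over the same comparisons 21.1% to 30.4% of all genes rose. Between irradiated and control skin 0 of the 8 passed, averaged over days or at any day, with limma or limma-voom, and 0 had an unadjusted p under 0.05.

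Ppargc1a, a coactivator that drives the making of mitochondria in muscle and brown fat, fell in both arms. Its log2 fold changes against day 0 were -1.23, -1.43 and -1.37 in irradiated skin at days 3, 6 and 9 (limma adjusted p 0.000145, 0.000288 and 6.02e-05), and -1.40, -1.24 and -1.39 in control skin (0.000175, 0.000398 and 4.97e-05). Its levels were low: 0.429, 0.565 and 0.420 FPKM at day 3, 0.278 and 0.290 at day 6 and 0.221, 0.514 and 0.277 at day 9 in irradiated skin. Control skin had Ppargc1a at 3.27 and 1.78 FPKM at day 0, 0.305 and 0.312 at day 3, 0.336 and 0.604 at day 6 and 0.261, 0.257 and 0.433 at day 9. Both day-0 values were above all later ones. Of the 9 biogenesis regulators tested, 3, 3 and 3 fell and 3, 2 and 3 rose in irradiated skin, and 3, 3 and 5 fell and 4, 3 and 3 rose in control skin. Over these comparisons 12.4% to 18% of all genes fell against day 0. In turn 21.1% to 30.4% rose, so the rising counts do not set the list apart. Pprc1, a related coactivator, rose by 0.90 in irradiated and 0.93 in control skin at day 9.

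Further steps of mitochondrial gene expression gave mixed counts, to be read against the 16.6% of all genes that fell and 29.6% that rose in irradiated skin at day 9 against day 0, and the 18% and 30.4% in control skin. Lrpprc, which stabilises mitochondrial mRNAs, stood at -0.30, -0.10 and -0.32 in irradiated skin at days 3, 6 and 9 (limma adjusted p 0.0092, 0.413 and 0.00673), and -0.17, -0.34 and -0.49 in control skin (0.16, 0.0111 and 0.000427). Of 18 RNA processing and stability genes, 5 fell and 3 rose in irradiated skin at day 9 against day 0, and 5 fell and 2 rose in control skin. Of 77 mitochondrial ribosomal protein genes, 39 fell and 2 rose in irradiated and 43 fell and 1 rose in control skin at that day, among them Mrpl2 of the large subunit at -0.79 and -0.95. The translation factor list counted 7 of 12 falling in irradiated and 8 in control skin, with the elongation factor gene Gfm1 at -0.62 and -0.74, and 1 rising in each. For rRNA and tRNA modification the counts were 0 falling and 2 rising of 16 in irradiated and 1 and 0 in control skin. The DNA maintenance list had 5 of 10 falling in irradiated and 5 in control skin, and 0 rising. Among these were Slc25a4, the adenine nucleotide carrier of heart and muscle, at -2.27 and -2.03, and Twnk, the helicase that copies mitochondrial DNA, at -0.55 and -0.62.

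With irradiation, Pnpt1, which encodes an RNA-degrading enzyme of mitochondria, rose. It had 22.1, 19.7 and 16.3 FPKM at day 3, 9.10 and 12.4 at day 6 and 12.9, 10.3 and 11.5 at day 9 in irradiated skin. Control skin had Pnpt1 at 6.83 and 8.16 FPKM at day 0, 10.3 and 10.7 at day 3, 9.14 and 8.50 at day 6 and 8.46, 8.25 and 9.51 at day 9. The irradiated libraries of day 3 stood above all others. The log2 fold change was 0.47 averaged over days (SE 0.08, limma adjusted p 0.00512) and 0.81 at day 3 (SE 0.14, limma adjusted p 0.0104). It was the 1 gene of its list of 18 that passed in either comparison. Averaged over days, 4 of 77 ribosomal protein genes rose, among them Mrps18b (0.27), Mrps18a (0.25) and Mrps34 (0.23). The mitochondrial thymidine kinase gene Tk2 (0.17, 1 of 10 DNA maintenance genes) and Qtrt1 (0.24, 1 of 16 modification genes), a tRNA-modifying enzyme gene, rose as well. Of all genes 4.36% rose in this comparison, so these counts do not set the lists apart. Among the genes it could test, limma-voom called 3 ribosomal protein genes, 0 DNA maintenance genes and 1 modification gene averaged over days. By day, 2, 33 and 13 of 77 ribosomal protein genes had an unadjusted p under 0.05 (limma) at days 3, 6 and 9. Of 16 modification genes 1, 7 and 0 did, and of all genes 11.4%, 15.4% and 22.7%. Both lists stood above that share at day 6, in counts that take both directions together. At that day the ribosomal protein genes summed to 1262 to 1300 FPKM in irradiated and 1054 to 1136 FPKM in control skin. The modification genes summed to 68.9 to 72.7 and 60.1 to 64.7 FPKM. These sums were not tested. At the adjusted threshold 0, 1 and 1 of the 77 passed, and 0 of the 16 did. Of all genes 0.124% fell and 0.151% rose at day 6, and 3.05% and 2.33% at day 9. Averaged over days, 0 genes of the lists for mitochondrial gene expression and DNA maintenance fell.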

How the data were processed

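RNA of whole mouse skin was made into Smart-Seq2 libraries, which prime on poly(A) tails and do not mark strand, per the labels' protocols and the known design of that kit. The authors deposited FPKM values for 34140 genes in 17 libraries. Alignment with HISAT2 2.2.1 to mm10 is named in the submitters' processing notes, with counter and annotation not given in the sources used here. Using GENCODE M21 gene lengths, 31476 of 34067 genes gave whole fragments within 0.01, so assigned fragments per library were recovered. No column was left unmapped (0).

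Log2(FPKM + 1) was fitted with limma over 7 groups and all 17 libraries, for the 15271 genes with at least 1 FPKM in 2 libraries. P-values were adjusted by Benjamini-Hochberg over all of them, with a threshold of 0.05, and a fold change on this scale understates the change of low genes. limma-voom on recovered fragments covered 13428 of these genes. The fit was tested on simulated data. All 16 members were named, with the 3 genes of largest change among those passing in each fixed list and 5 genes of mitochondrial transcription and its regulation. The members and lists were chosen with earlier results of these data known. Alternatives covered pseudocounts of 0.1 and 5, filters, scalings, the groups fitted, a replicate block, left-out libraries and summed copies. Copies were found with BLAST 2.17.0 among annotated transcripts. R 4.3.3, limma 3.58.1, version 1.17.8 of data.table, Python 3.11.15, numpy 2.4.6, pandas 2.3.3, matplotlib 3.10.9 and Biopython 1.88 were used.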

Additional observations from a re-analysis of the deposited data

Results flagged for a closer look

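The share of summed FPKM held by the 16 mitochondrially encoded genes moved in opposite directions between days when irradiated skin was set against control skin. The mean of the irradiated libraries minus that of the control libraries was -2.41 percentage points at day 3, 0.898 at day 6 and -1.51 at day 9. Every irradiated library was below every control library at days 3 and 9, and both were above at day 6. Counted as fragments, the means kept these directions, but the arms overlapped at days 6 and 9. The difference between the days was not tested for the share. For the single genes, the F test of that difference passed for 0 of 16 (limma, 2 at an unadjusted p under 0.05, and 0 by limma-voom).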

How the results depend on the processing

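Of the single-gene calls, 1200 kept their direction and side of the threshold over the alternatives, 116 lost significance and 0 were reversed. A pseudocount of 5 called mt-Atp8 higher in control day 3 than at day 0. With no filter on low values, members called were 9 for control day 6 and 8 for irradiated day 6 against day 0, against 15 and 14, and 0 averaged over days between irradiated and control skin. The other comparisons with day 0 then had 12 calls in irradiated skin at days 3 and 9, and 11 and 12 in control skin, against 15 each, so that 26 single-gene calls ended. With only the groups compared, the counts were 1 for control day 3, 0 for control day 6 and 0 for irradiated day 6 against day 0, 2 averaged over days, 2 at day 3 and 2 at day 9 between irradiated and control skin, and 1 for control day 9 against day 3. A minimum of 5 FPKM gave 1 call at day 3 between irradiated and control skin. Scaling to the nuclear total gave 1 at day 3 and 1 at day 9, and median-of-ratios scaling gave 0 averaged over days, as did summing the copies, chosen after seeing the data. The causes of these moves were not tested. mt-Atp6 averaged over days had limma adjusted p values of 0.0105 to 0.225 over the alternatives.

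Leaving out 1 library gave 0 to 1 calls averaged over days, 0 by day, 0 for the F test and for day 9 against day 3, 11 to 16, 11 to 15 and 13 to 15 for control days 3, 6 and 9 against day 0, and 15, 10 to 15 and 15 for irradiated days 3, 6 and 9. Groups left with 1 library are assumed to vary like the others. Against day 0, scaling to the nuclear total moved the median of all genes by -0.17 to -0.05 and median-of-ratios scaling by -0.16 to -0.10, while the members' medians were -2.15 to -1.53 and -2.09 to -1.37. As fragments, the share was 4.40% in irradiated and 4.86% in control skin of days 3 to 9, and 13.8% at day 0. With the replicate number as a block, control day 6 against day 0 had 14 calls, and 1 passed averaged over days between irradiated and control skin. Deviations of same-numbered libraries correlated at -0.12 to 0.30 over 6 pairs, so the numbers were not taken as pairing. mt-Atp8, with 1 to 11 fragments per library, is limited by depth.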

Other observations

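Some chromosome 1 copies differed widely between libraries of a group. Gm28661, the copy of mt-Co2, stood at 283.9 and 678.4 FPKM in irradiated day 3 replicates 1 and 2 and at 72.4 FPKM in replicate 3. Gm29216, the copy of a part of mt-Co1, stood at 869.5 FPKM in irradiated day 6 replicate 1 and 79.5 FPKM in replicate 3. At control day 0 the same copy had 728.1 FPKM in replicate 1 and 135.3 FPKM in replicate 2. These values belong to no comparison and were not tested.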
